A study of Mus musculus with 6 samples.

Results

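The replication-dependent histone genes of the mouse were followed in liver RNA. They were taken as the protein-coding genes whose symbols start with Hist1h, Hist2h, Hist3h or Hist4h, which gave 64 of the 41388 genes counted. The linker histone H1 has 6 of them, H2a 18, H2b 15, H3 12 and H4 13. The Hist1 locus on chromosome 13 holds 52, Hist2 on chromosome 3 holds 9, Hist3 on chromosome 11 holds 2 and Hist4 on chromosome 6 holds 1 (GRCm38).

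In chromatin, DNA winds around a core of H2A, H2B, H3 and H4, and linker histone H1 binds where it enters and leaves. The genes of this family are switched on mainly in S phase, when newly made DNA has to be packaged, and most lack introns. Their mRNAs usually end in a conserved stem-loop in place of a poly(A) tail, a structure bound by the protein SLBP. In adult liver most hepatocytes are out of the cell cycle, so these mRNAs serve as one of the usual markers of dividing cells, although some family members are also transcribed outside S phase.

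All mice carried Mttp f/f and Villin Cre ER T2 on a C57BL/6 background. Mttp encodes the protein that loads lipid onto lipoproteins, and the Villin promoter drives the Cre in intestinal epithelium, so the deletion induced by tamoxifen concerned the intestine and not the liver. Male mice were injected with tamoxifen (Mttp-IKO) or vehicle (control, named wild type in the labels) for 5 days and, 3 weeks later, at 12 to 16 weeks of age, were put on a methionine- and choline-deficient (MCD) diet for 3 weeks. Each group has 3 pools of liver RNA, each from 3 to 4 mice, so each replicate averages several mice and pools can be expected to vary less than single animals. Because ribosomal RNA was depleted and no poly(A) selection is named, mRNAs without a tail could be read. Both groups were fed the MCD diet, and no chow-fed liver is part of the comparison.

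The pools held 25271585 to 36238734 reads on genes. Hepatocyte markers summed to 68054 to 104987 CPM in control (CPM is the read count relative to the library size, here scaled by TMM) and 134285 to 182268 CPM in Mttp-IKO. Mttp is not deleted in liver, so its level there (150 ± 52.1 CPM in control, 145 ± 15.9 CPM in Mttp-IKO, SD, n = 3 pools) is no check of the labels. Mttp-IKO pool 3 stood apart: 1.85% of its protein-coding reads lay on genes of up to 1000 nt, against 4.00% to 4.31% in the other 5 pools. Most histone genes are that short, so values are also given without that pool.

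The stem-loop is shown first because most of the family shares it and its stem sets H4 apart from the other classes. The histone 3′ stem-loop consensus was found in the annotated transcript (GENCODE M21) of 44 of the 64 genes, 68.8%, against 86 of 55450 genes of the annotation, 0.155%. Below, capitals mark the arms of the stem and lower case the loop, written 5′ to 3′ as DNA. The first form was shared by 24 genes of H1, H2a, H2b and H3, among them Hist1h3b and Hist1h3d, the second by 7 genes, all of H4, and the third by 6 genes of H1, H2b and H3.
Form of H1, H2a, H2b and H3 genes: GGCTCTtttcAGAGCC
Form of H4 genes: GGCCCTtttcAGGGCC
Form with another loop: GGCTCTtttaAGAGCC

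With positions counted from 1 at the 5′ end, the H4 form differs from the first by T4C and A13G, a change of 1 base pair of the stem, and the third form by C10A in the loop. All 12 H4 genes in which the stem-loop was found carried both T4C and A13G, and no gene of another class did.

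In 12 places an H2a gene and an H2b gene lie head to head and share the DNA between them, which spans 235 to 305 nt between the counted gene models. The stretch between Hist1h2ak and Hist1h2bn is printed as an example of a pair low together in Mttp-IKO. Both genes were lower in 7 of the 8 pairs in which both were tested. The start of Hist1h3b, the gene with the lowest p, and that of Hist1h4h, a high-level H4 gene, are given beside it. A link between these sequences and the levels was not tested. Sequences are from RefSeq (GRCm38.p6), from 250 bases before to 50 after the start of the gene, and were matched for 59 of the 64 genes. The RefSeq start can differ from that of the counted model. Capitals mark the motifs CCAAT and TATAAA, read on both strands.
Hist1h2bn (chr13:21753826-21754125, plus strand): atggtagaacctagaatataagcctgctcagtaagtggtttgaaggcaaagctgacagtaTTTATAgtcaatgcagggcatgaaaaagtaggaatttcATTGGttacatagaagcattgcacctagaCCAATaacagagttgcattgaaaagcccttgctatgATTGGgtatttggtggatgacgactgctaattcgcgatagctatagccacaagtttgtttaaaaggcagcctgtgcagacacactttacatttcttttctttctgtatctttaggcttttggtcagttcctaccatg
Hist1h3b (chr13:23752095-23752394, plus strand): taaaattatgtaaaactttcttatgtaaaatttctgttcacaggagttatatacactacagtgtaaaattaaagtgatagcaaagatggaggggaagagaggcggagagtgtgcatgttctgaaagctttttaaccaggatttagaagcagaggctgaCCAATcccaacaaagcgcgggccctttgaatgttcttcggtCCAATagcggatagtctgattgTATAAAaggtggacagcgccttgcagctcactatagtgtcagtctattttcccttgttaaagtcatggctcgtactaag
Hist1h4h (chr13:23530794-23531093, plus strand): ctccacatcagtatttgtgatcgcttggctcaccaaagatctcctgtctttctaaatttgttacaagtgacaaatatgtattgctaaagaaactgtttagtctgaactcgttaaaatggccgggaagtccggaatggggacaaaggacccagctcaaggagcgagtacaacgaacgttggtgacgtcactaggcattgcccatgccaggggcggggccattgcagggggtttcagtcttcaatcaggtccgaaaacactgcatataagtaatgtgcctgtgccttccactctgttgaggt

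CCAAT was present in 50 of the 59 promoters, 84.7%, and in 41.1% of the 27025 promoters of all genes. It was in each of the 47 promoters of H1, H2a, H2b and H3 genes and in 3 of the 12 of H4. TATAAA was present in 35 of 59, 59.3%, against 15.7% of all promoters. The octamer ATTTGCAT was in 12, 7 of H2a and 5 of H2b, against 1.97% of all promoters, and H1, H3 and H4 had none in these 300 bases. The Hist1h3b and Hist1h2bn stretches above hold CCAAT and TATAAA, and the Hist1h4h stretch holds neither CCAAT nor TATAAA. Matches describe the letters only.

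The levels of the family were uneven. Per length of the counted gene model, as mean CPM per kb in control, Hist1h4d was highest at 339, followed by Hist1h4h at 181.6, Hist1h2bc at 159, Hist1h4c at 155, Hist1h1c at 67.8 and Hist1h1e at 59.2. Hist1h4d, Hist1h1c, Hist1h2bc and Hist1h4h together took 50.2% of all reads counted on the 64 genes. Only reads with a single place in the genome were counted, so near-identical copies lower the counts: a median of 37.2% of the 50-base words of a gene occurred in no other gene, 95.7% for H1, 59.6% for H4, 40.6% for H2b, 28.9% for H3 and 18.5% for H2a. The 4 genes with 0 reads in every pool, Hist2h2aa1, Hist2h2aa2, Hist2h3b and Hist2h3c1, had no such word of their own, so their level was not measurable here. A count of 0 allows up to 3 reads, which is 0.0828 to 0.119 CPM per pool, here relative to the library size without TMM scaling.

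In all, 49 of the 64 genes passed the filter on low counts and were tested. Of the other 15, 4 had 0 reads and 11 were low, with at most 38 reads over the 6 pools and at most 0.446 CPM in any pool. They were Hist1h1t, Hist1h2aa, Hist1h2ao, Hist1h2ap, Hist2h2ab, Hist1h2ba, Hist1h2bp, Hist1h2bq, Hist1h2br, Hist3h2ba and Hist1h4b. The filter favoured genes high in control: 11 of the 49 were under its level in at least 1 Mttp-IKO pool, and none was under it in a control pool, so the counts below describe genes that passed and not the family. Over all 64 genes, the mean CPM was higher in control for 57 and higher in Mttp-IKO for Hist1h1t, Hist2h2ab and Hist2h2be.

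In Mttp-IKO livers 2 H3 genes fell, 48 of the 49 had a negative log2 fold change, and the summed reads of the whole family were lower in each Mttp-IKO pool. Hist1h3b and Hist1h3d passed an adjusted p of 0.05 in edgeR's quasi-likelihood test, adjusted by Benjamini-Hochberg across 17287 genes, of which 3.09% were called lower. At an unadjusted p under 0.05, 32 of the 49 were lower, where 13.5% of all genes tested were. All 3 Mttp-IKO pools lay below all 3 control pools for 29 of the 49, against 16.5% of all genes. Of all genes tested, 49.5% had a negative value. Short genes were lower more often, and 42 of the 49 have up to 1000 nt. Among the 569 protein-coding genes of that length tested, which include these 42, 75.6% had a negative value. In edgeR 18.1% of the 569 were lower at an unadjusted p under 0.05, and 22.3% were lower without overlap. For the 42 these shares were 71.4% and 64.3%, and all 42 were negative. The median log2 fold change of the 49 was -1.56, and that of all genes tested was 0.01. Without Mttp-IKO pool 3, the median was -1.06, 44 of the 49 were lower, 29 still lay below every control pool (22.9% of all genes), and 3 were called, against 3.15% of all genes called lower.

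How many genes passed the threshold depended on the tool, the filter and the pools. DESeq2's Wald test called 22 of the 49, all lower, with 7.74% of all genes called lower, and limma-voom called Hist1h3b only, with 1.80%. Without the filter edgeR called 11 of 60, with 2.86%. Leaving out control pool 1, control pool 3, Mttp-IKO pool 1 or Mttp-IKO pool 2 left 0 called by edgeR, with 16, 24, 35 and 25 at an unadjusted p under 0.05, and leaving out control pool 2 gave 8, with 892 of all genes called. The other 4 settings called 24, 21, 55 and 0 of all genes, with 2476, 2540, 4457 and 3221 at an unadjusted p under 0.05.

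**Figure D1:**
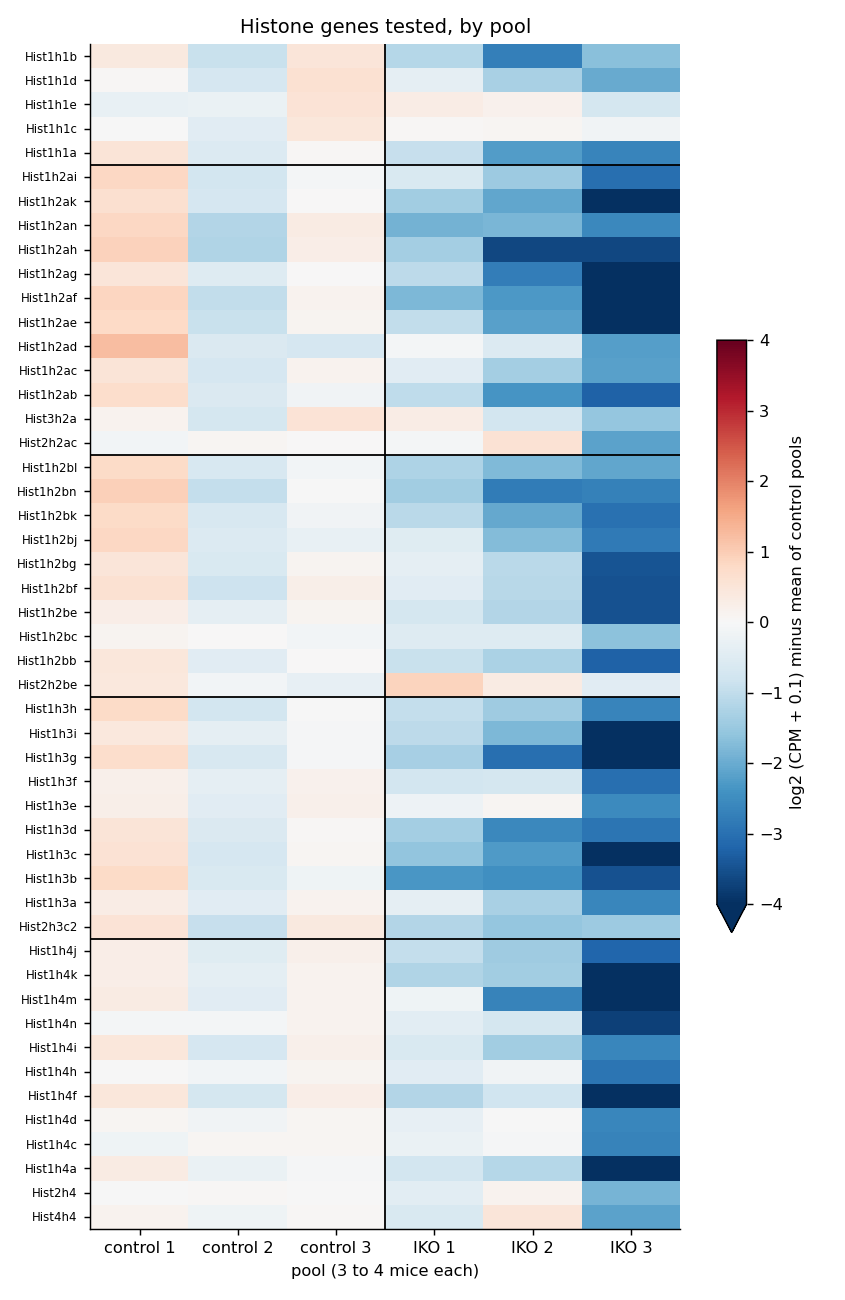
Each row is a histone gene that was tested, ordered by class from H1 at the top to H4 and split by black lines, and each column a pool; colour gives log2 of CPM plus 0.1 minus the mean of the 3 control pools, and values under -4 share the darkest blue. The column of Mttp-IKO pool 3 is the darkest for 45 of the 49 genes among the Mttp-IKO pools, and Hist1h1c, Hist1h1e and Hist2h2be show little blue in any pool.

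**Figure D2:**
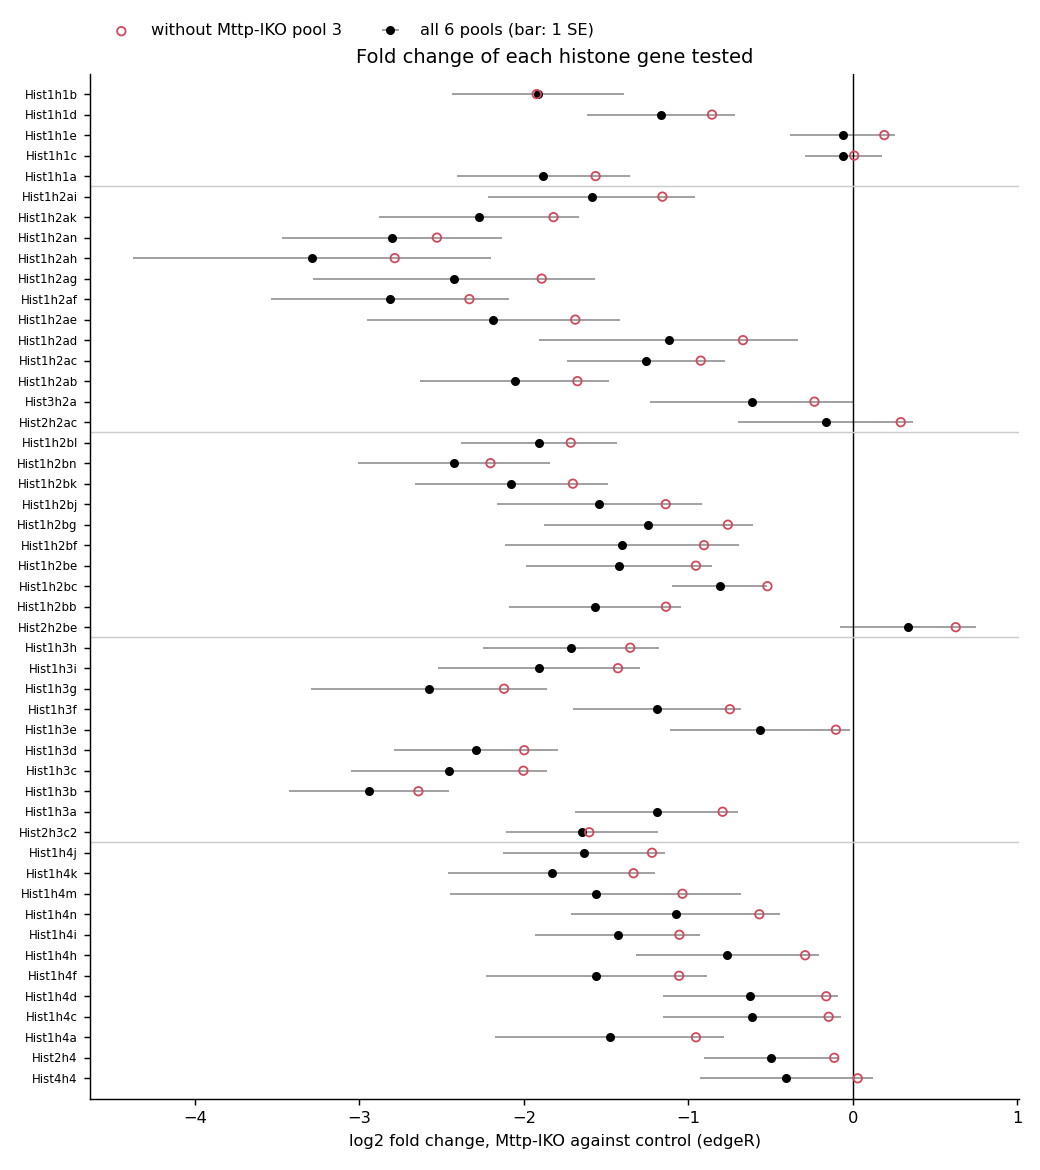
Log2 fold change of Mttp-IKO against control for the 49 genes tested, by class from H1 at the top to H4; black points use all 6 pools with bars of 1 SE, and red circles leave out Mttp-IKO pool 3. Hist1h3b at -2.94 and Hist1h3d at -2.29 are the genes that passed the threshold, and Hist2h2be at 0.34 is the one positive value.

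Linker histones split into a pair that was nearly level and 3 that were low. Hist1h1c and Hist1h1e encode the H1 subtypes H1.2 and H1.4, which many differentiated tissues carry. Hist1h1c (chr13:23738808-23740367, 1560 nt) had 101, 74.8 and 141.5 CPM in the control pools and 104.7, 107.9 and 92.4 in the Mttp-IKO pools, and the groups overlapped, with a log2 fold change of -0.06 ± 0.24 (SE, edgeR adjusted p = 0.911). Hist1h1e had 34.6, 35.8 and 62.4 CPM in control and 52.6, 48.3 and 26.2 in Mttp-IKO, again overlapping, at -0.06 ± 0.32 (edgeR adjusted p = 0.931). Both turned positive without Mttp-IKO pool 3, at 0.01 and 0.19, and also without control pool 3.

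The other H1 genes were at a lower level. Hist1h1a, which encodes H1.1, had 4.46, 2.08 and 3.24 CPM in control and 1.61, 0.582 and 0.419 in Mttp-IKO, without overlap. The log2 fold change was -1.88 ± 0.53 with an adjusted p of 0.0891 in edgeR. Hist1h1b, which encodes H1.5, had 4.93, 1.97 and 5.27 CPM in control and 1.64, 0.480 and 1.09 in Mttp-IKO, at -1.91 ± 0.52 (edgeR adjusted p = 0.0822) and -1.92 without pool 3. Hist1h1d, which encodes H1.3, had 19.9, 12.1 and 29.8 CPM in control and 14.9, 7.81 and 4.73 in Mttp-IKO, so that pool 1 of Mttp-IKO lay within the control range, at -1.17 ± 0.45 (edgeR adjusted p = 0.175). Every 50-base word of Hist1h1a and Hist1h1b was found in no other gene, so these low counts do not share reads with copies. Summed over all 6 H1 genes the ratio of Mttp-IKO to control was 0.872, and 0.957 without pool 3.

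The summed reads of the 18 H2a genes were lower in each Mttp-IKO pool than in any control pool. H2A and H2B pair into dimers that flank the H3 and H4 tetramer of the nucleosome. Hist1h2ak had 15.6, 6.23 and 10.01 CPM in control and 3.70, 2.30 and 0.503 in Mttp-IKO, at -2.27 ± 0.61 (edgeR adjusted p = 0.0784). Hist1h2af had 6.98, 1.86 and 4.18 CPM in control and 1.03, 0.685 and 0.0838 in Mttp-IKO, at -2.81 ± 0.72 (edgeR adjusted p = 0.0718). Hist1h2an, at 1.83, 0.388 and 1.28 CPM in control and 0.193, 0.206 and 0.0838 in Mttp-IKO, was the one gene under the filter's level in all 3 Mttp-IKO pools, at -2.80 ± 0.67 (edgeR adjusted p = 0.0604).

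The same 3 genes had no overlap between groups, and 6.00%, 14.2% and 43.0% of the words of Hist1h2af, Hist1h2an and Hist1h2ak were their own, so reads could be lost to copies in both groups. Outside Hist1, Hist2h2ac had 16.05, 18.2 and 17.5 CPM in control and 16.4, 25.8 and 3.85 in Mttp-IKO, at -0.16 ± 0.53 (edgeR adjusted p = 0.882) and 0.29 without pool 3. Hist3h2a was near the floor, at 0.768, 0.388 and 1.06 CPM in control and 0.869, 0.377 and 0.168 in Mttp-IKO, at -0.61 ± 0.62 (edgeR adjusted p = 0.593).

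H2b was led by Hist1h2bc, which held most of its reads. Hist1h2bc (chr13:23684199-23692488) had 126, 117 and 107 CPM in control and 82.1, 80.8 and 37.0 in Mttp-IKO, without overlap, at -0.81 ± 0.29 (edgeR adjusted p = 0.153) and -0.52 without pool 3. Hist1h2bn had 13.003, 3.35 and 6.58 CPM in control and 2.45, 0.856 and 0.922 in Mttp-IKO, at -2.43 ± 0.59 (edgeR adjusted p = 0.0619). Hist1h2bl had 3.62, 1.30 and 1.93 CPM in control and 0.837, 0.548 and 0.419 in Mttp-IKO, at -1.91 ± 0.47 (edgeR adjusted p = 0.0658). All 3 were low in each Mttp-IKO pool.

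Of the rest, Hist1h2bk had 4.71, 1.72 and 2.43 CPM in control and 1.22, 0.582 and 0.251 in Mttp-IKO, at -2.08 ± 0.59 (edgeR adjusted p = 0.0904). Hist1h2bg, the second highest by mean CPM, had 18.3, 8.45 and 14.1 CPM in control and 10.01, 6.03 and 1.09 in Mttp-IKO, overlapping, at -1.24 ± 0.63 (edgeR adjusted p = 0.283). Hist1h2be, whose counted model has 2 exons and 4374 nt, had 11.2, 7.31 and 10.04 CPM in control and 5.73, 4.08 and 0.754 in Mttp-IKO, at -1.42 ± 0.57 (edgeR adjusted p = 0.187). Hist2h2be stands alone as the positive value, with 1.96, 1.30 and 1.12 CPM in control and 2.70, 1.82 and 1.01 in Mttp-IKO, at 0.34 ± 0.42 (edgeR adjusted p = 0.664). Its value turned to -0.05 without Mttp-IKO pool 1.

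H3 held both genes that fell. Hist1h3b (chr13:23752267-23752886, plus strand, 1 exon) had 8.17, 3.13 and 4.27 CPM in control and 0.869, 0.788 and 0.335 in Mttp-IKO. Every Mttp-IKO pool was below every control pool. It fell by 2.94 ± 0.48 on the log2 scale, a 7.68-fold lower level (edgeR adjusted p = 0.0241), and without pool 3 the value was -2.64 with an edgeR adjusted p of 0.0352. Hist1h3d (chr13:23575763-23576322, plus strand, 1 exon) had 5.99, 2.77 and 4.27 CPM in control and 1.55, 0.617 and 0.461 in Mttp-IKO, again without overlap. It fell by 2.29 ± 0.50 on the log2 scale, a 4.89-fold lower level (edgeR adjusted p = 0.0476), and its adjusted p was 0.0674 in edgeR without pool 3.

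The other H3 genes named here did not pass the threshold with all 6 pools. Hist1h3c had 15.3, 6.40 and 10.7 CPM in control and 3.32, 2.06 and 0.461 in Mttp-IKO, at -2.45 ± 0.60 (edgeR adjusted p = 0.0629), and it was called without pool 3. Hist2h3c2 had 2.65, 0.886 and 2.37 CPM in control and 0.741, 0.548 and 0.587 in Mttp-IKO, at -1.65 ± 0.46 (edgeR adjusted p = 0.0883). Hist1h3f had 21.8, 14.5 and 21.1 CPM in control and 11.3, 11.5 and 2.26 in Mttp-IKO, at -1.19 ± 0.51 (edgeR adjusted p = 0.212). Hist1h3e, the highest H3 gene, had 34.6, 21.5 and 34.2 CPM in control and 25.3, 30.7 and 4.94 in Mttp-IKO, overlapping, at -0.56 ± 0.55 (edgeR adjusted p = 0.576) and -0.10 without pool 3. Groups did not overlap for 8 of the 10 H3 genes tested. The same held, lower in Mttp-IKO, for 16.5% of all genes and 22.3% of protein-coding genes of up to 1000 nt.

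H4 was the most abundant class and the one that turned most on Mttp-IKO pool 3. Hist1h4d had 139.6, 120.4 and 139.7 CPM in control and 105.5, 132.5 and 21.5 in Mttp-IKO, at -0.62 ± 0.53 (edgeR adjusted p = 0.520) and -0.16 without pool 3. Hist1h4h had 84.7, 79.9 and 93.1 CPM in control and 62.8, 77.6 and 11.3 in Mttp-IKO, just without overlap, at -0.76 ± 0.56 (edgeR adjusted p = 0.449). Hist2h4 had 29.9, 31.9 and 29.9 CPM in control and 22.9, 33.6 and 8.42 in Mttp-IKO, at -0.50 ± 0.41 (edgeR adjusted p = 0.505). In these genes pool 1 of Mttp-IKO was below every control pool, pool 2 was close to control, and pool 3 was far below.

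The other H4 genes named here had lower levels in control. Hist1h4k had 17.4, 10.9 and 15.8 CPM in control and 6.21, 5.41 and 0.629 in Mttp-IKO, without overlap, at -1.83 ± 0.63 (edgeR adjusted p = 0.138), and was called without pool 3 at -1.33 (edgeR adjusted p = 0.0324). Hist1h4j had 13.1, 7.81 and 12.7 CPM in control and 5.60, 3.97 and 1.13 in Mttp-IKO, at -1.64 ± 0.49 (edgeR adjusted p = 0.104). Hist1h4i had 7.73, 3.49 and 6.36 CPM in control and 3.57, 2.06 and 0.838 in Mttp-IKO, with pool 1 inside the control range, at -1.43 ± 0.50 (edgeR adjusted p = 0.146). Hist4h4, the one gene of its locus, had 21.2, 17.3 and 19.9 CPM in control and 12.6, 27.1 and 4.36 in Mttp-IKO, with pool 2 above every control pool, at -0.40 ± 0.52 (edgeR adjusted p = 0.683) and 0.03 without pool 3.

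Summed over all 64 genes, reads came to 1004, 762 and 998 CPM in the control pools and 683, 722 and 247 CPM in the Mttp-IKO pools, without overlap, a ratio of 0.598 and of 0.763 without pool 3. The sums include genes under the filter. H3 had the lowest ratio at 0.417, followed by H2a at 0.430, H2b at 0.502 and H4 at 0.588. Without Mttp-IKO pool 3 these ratios were 0.567, 0.586, 0.628 and 0.809. H2b sums did not overlap, with 152 to 205 CPM in control and 43.2 to 115 CPM in Mttp-IKO. Likewise H2a had 43.0 to 83.8 CPM against 7.37 to 37.0, H3 67.97 to 126.0 CPM against 11.6 to 58.4, and H4 372 to 433 CPM against 60.0 to 366, while H1 overlapped, with 127 to 242 CPM against 125 to 175. An exact test of 3 against 3 pools cannot give a two-sided p under 0.1, so these sums carry none.

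**Figure D3:**
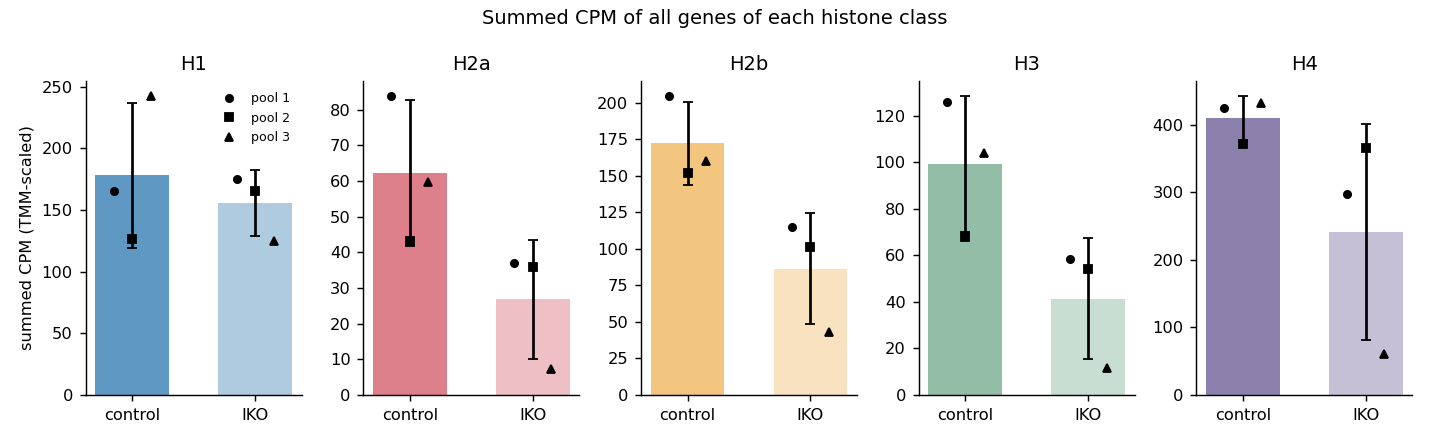
Bars give the mean summed CPM of all genes of each class with 1 SD over 3 pools, and points mark the pools, each panel with its own axis from 0. The H1 pools of both groups overlap, and in H2a, H2b, H3 and H4 pool 3 of Mttp-IKO is the lowest point.

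As a share of the family's own reads, which no scaling of the library moves, H4 held 44.8% ± 3.5 of control reads and 39.5% ± 13.6 of Mttp-IKO reads (SD, n = 3 pools), but 43.5%, 50.6% and 24.3% in the single Mttp-IKO pools. H1 held 16.4%, 16.6% and 24.3% in control and 25.7%, 22.9% and 50.6% in Mttp-IKO. The H3 share was 12.5%, 8.92% and 10.4% in control and 8.54%, 7.52% and 4.71% in Mttp-IKO, without overlap. H2a ran from 5.65% to 8.35% in control and from 2.98% to 5.41% in Mttp-IKO, also without overlap, whereas the H2b shares overlapped.

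By level, the 8 genes with a mean over all pools of at least 20 CPM had a median log2 fold change of -0.59, and -0.13 without pool 3. The 41 tested genes under that level had -1.64, and -1.22 without pool 3. The 41 include the 11 that were under the filter's level in at least 1 Mttp-IKO pool. The split at 20 CPM was chosen after the values were seen.

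By position, the 52 Hist1 genes lie in 2 groups separated by 1487 kb, 22 genes within 328 kb and 30 within 404 kb. In the first, 17 genes were tested with a median of -1.91, and in the second 26 with -1.33. All 43 were negative. Without Mttp-IKO pool 3 the medians were -1.43 and -0.91, and 41 of the 43 were negative. The 4 tested genes of Hist2 had a median of -0.33, with Hist2h3c2 at -1.65 the lowest and Hist2h2be at 0.34 the highest. Of the 12 head-to-head H2a and H2b pairs, both genes were tested in 8, and both were lower in 7. The exception was Hist2h2ac with Hist2h2be.

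**Figure D4:**
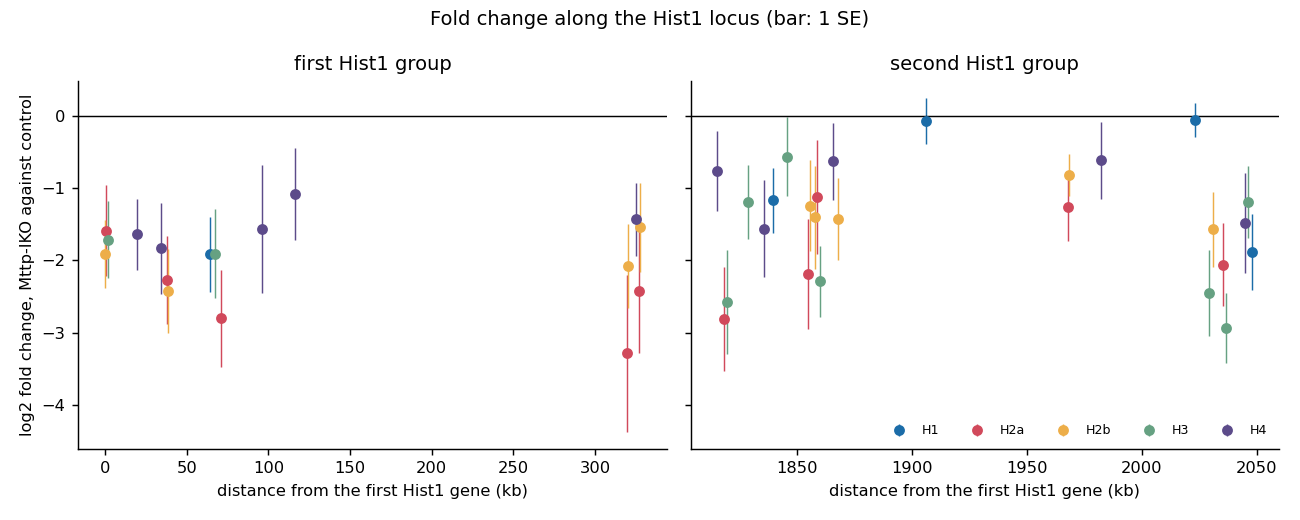
Log2 fold change of the 43 tested Hist1 genes against their distance in kb from the first Hist1 gene, coloured by class with bars of 1 SE, in the 2 gene groups of the locus. All points lie under 0 in both groups, and the H1 genes Hist1h1e and Hist1h1c at -0.06 are nearest to it.

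By length, the 42 tested genes of up to 1000 nt had a median of -1.58, and -1.15 without pool 3, whereas the 569 protein-coding genes of that length had -0.33 and -0.06. The 7 tested genes over 1000 nt had -0.50, and -0.11 without pool 3. In 45 of the 49 tested genes the lowest Mttp-IKO value was in pool 3. Set against the mean of Mttp-IKO pools 1 and 2, pool 3 was at a median log2 ratio (of CPM plus 0.1) of -2.10 for the 42 short histone genes and -1.08 for the 527 other protein-coding genes of up to 1000 nt tested. In a narrower band of these short lengths, the 32 histone genes had -2.34 and the 110 other protein-coding genes -1.40. From over 1000 to 2000 nt the order was reversed, with -0.20 for 3 histone genes and -0.47 for 2161 other protein-coding genes. The 4 histone genes over 2000 nt had -1.80, where the 11461 other protein-coding genes of that length had 0.07. All these lengths are of annotated gene models. In the annotated transcripts of Hist4h4, Hist1h2be and Hist3h2a the stem-loop lies 2445, 1861 and 1643 nt before the end. An mRNA that ends at the stem-loop would be shorter than its model, so the lengths may not be those of the mRNAs read. The part of transcript length in the values was not tested beyond these figures and a fit with each pool's trend with length removed, which gave a median of -1.29 over the 49.

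**Figure D5:**
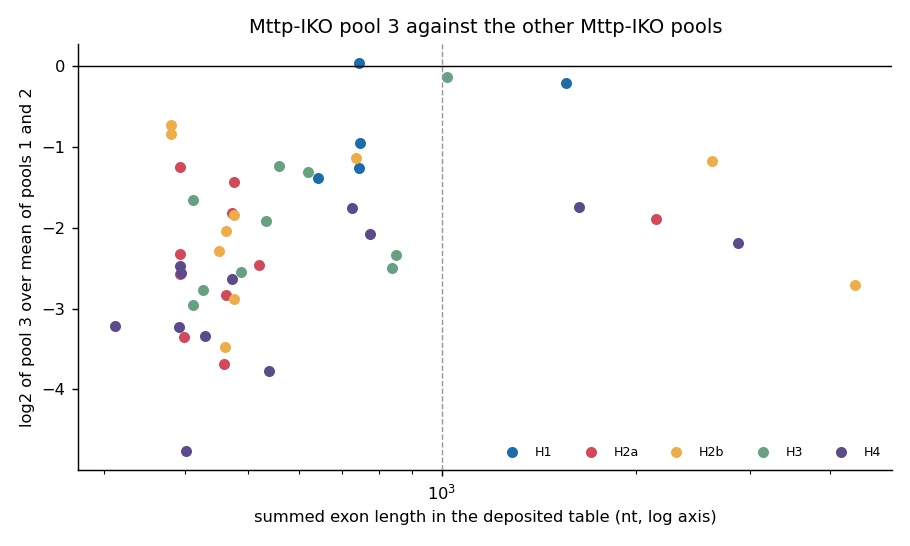
Log2 ratio of Mttp-IKO pool 3 to the mean of Mttp-IKO pools 1 and 2 for each tested histone gene, against its summed exon length on a log axis, coloured by class; the dashed line marks 1000 nt, and 2 genes with 0 reads in pool 3 are not drawn. Most points lie under -1, and those nearest to 0 are Hist1h1b at 0.04, Hist2h3c2 at -0.14 and Hist1h1c at -0.20.

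Of the genes that make or handle histone mRNA, none of 20 was called by edgeR, with 1 at an unadjusted p under 0.05, and DESeq2 and limma-voom called none. Among all 17287 genes tested, 3978 had an unadjusted p under 0.05 in edgeR. The list covers Npat, the S-phase coactivator of histone genes, SLBP and the factors of 3′ end cutting and decay. Npat had a log2 fold change of 0.48 ± 0.24 (edgeR adjusted p = 0.275). Lsm10, a part of the U7 particle that cuts histone pre-mRNA, was at -0.52 ± 0.29 (edgeR adjusted p = 0.318), and the cap-binding Ncbp1 at 0.35 ± 0.14 (edgeR adjusted p = 0.174). The list summed to 620 to 629 CPM in control and 613 to 695 CPM in Mttp-IKO.

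Histone chaperones, which carry histones to DNA, gave 0 of 21 called by edgeR, with 2 called lower by DESeq2 and 0 by limma-voom. At an unadjusted p under 0.05 in edgeR, 2 were lower and 1 was higher. The log2 fold change was positive for 12 and negative for 9, with a median of 0.05, and 49.5% of all genes tested were negative. The list summed to 821 to 839 CPM in control and 867 to 904 CPM in Mttp-IKO. DESeq2 called 7.74% of all genes tested lower. Asf1b, an H3 and H4 chaperone of dividing cells, had 2.23, 0.775 and 1.97 CPM in control and 0.612, 0.308 and 0.251 in Mttp-IKO, at -2.05 ± 0.53 (edgeR adjusted p = 0.0726). Chaf1a, of the complex that loads H3 and H4 at forks, was at -1.04 ± 0.31 (edgeR adjusted p = 0.105). Ubn1, another gene of the list, was higher, at 0.43 ± 0.17 (edgeR adjusted p = 0.189).

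Genes of DNA replication were lower as a list, with 8 of 40 called lower by edgeR and 39 negative, at a median of -0.62. Among all genes tested, 3.09% were called lower and 49.5% were negative. Mcm5, a subunit of the replicative helicase, fell by 1.76 ± 0.19 on the log2 scale (edgeR adjusted p = 0.0126), Mcm3 by 1.22 ± 0.19 (edgeR adjusted p = 0.0213) and Uhrf1, which maintains DNA methylation, by 2.09 ± 0.32 (edgeR adjusted p = 0.0200). Pcna, the clamp of the replication fork, had -0.42 ± 0.25 (edgeR adjusted p = 0.348). Of 24 mitosis genes 23 were tested, all negative with a median of -1.59, and 2 were called lower. They were Nuf2, of the kinetochore, at -2.90 ± 0.58 (edgeR adjusted p = 0.0390), and Aurkb, a mitotic kinase, at -2.16 ± 0.46 (edgeR adjusted p = 0.0444). The mitosis list summed to 46.2 to 103.5 CPM in control and 20.4 to 37.2 CPM in Mttp-IKO, and the replication list to 357 to 364 CPM against 208 to 242 CPM.

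Of the histone variants made outside S phase, 9 of 11 tested had a negative log2 fold change, with 0 called by edgeR, 5 at an unadjusted p under 0.05, 1 called lower by DESeq2 and 0 by limma-voom. Among all 17287 genes tested, 49.5% were negative, 3978 had an unadjusted p under 0.05 in edgeR, and DESeq2 called 7.74% lower. H1f0, the linker histone of resting cells, had 70.1, 102.0 and 94.8 CPM in control and 128, 164 and 114 in Mttp-IKO, without overlap and higher, at 0.61 ± 0.21 (edgeR adjusted p = 0.140). H2afy, which encodes macroH2A1, had -0.24 ± 0.13 (edgeR adjusted p = 0.321), and H3f3b, which encodes H3.3, had -0.04 ± 0.20 (edgeR adjusted p = 0.937). Cenpa, the H3 of centromeres, was at -0.96 ± 0.25 (edgeR adjusted p = 0.0749), and H1fx at -1.70 ± 0.60 (edgeR adjusted p = 0.145).

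Markers of macrophages and of stellate cells and fibroblasts included genes called lower in Mttp-IKO, and those of other liver cells gave no call by edgeR. In bulk liver, fewer cells of a type and less RNA per cell cannot be told apart. Among all 17287 genes tested, edgeR called 535 lower and 159 higher, and 3978 had an unadjusted p under 0.05 in either direction. DESeq2 called 1995 of all genes, with 7.74% called lower. Macrophage markers summed to 918 to 1863 CPM in control and 624 to 941 CPM in Mttp-IKO, with 5 of 15 called lower and 1 higher by edgeR. Stellate and fibroblast markers summed to 950 to 1758 CPM and 487 to 536 CPM, with 7 of 11 called lower. Lymphocyte markers summed to 40.5 to 79.3 CPM and 25.4 to 32.6 CPM, with 0 of 10 tested called by edgeR, 4 at an unadjusted p under 0.05 and 3 called by DESeq2. Hepatocyte markers had 9 of 10 positive, with 0 called by edgeR, 5 at an unadjusted p under 0.05 and 4 called higher by DESeq2. Erythroid sums overlapped, at 331 to 474 CPM and 241 to 396 CPM, with 0 of 7 tested called by edgeR or DESeq2 and 0 at an unadjusted p under 0.05. Cholangiocyte sums overlapped too, at 96.3 to 216.6 CPM and 73.2 to 125.2 CPM, with 0 of 7 called by edgeR, 3 at an unadjusted p under 0.05 and 1 called lower by DESeq2. Of the lists with 0 called by edgeR, limma-voom called none either. No marker was at 0 in every pool. Control pool 2, the lowest control pool for 41 of the 49 histone genes tested, was also the lowest control pool for the macrophage, stellate, lymphocyte and mitosis sums. The same pool was the lowest for the erythroid, cholangiocyte, replication and histone variant sums too, and the highest for the hepatocyte and chaperone sums. The part of these cell types in the histone values was not tested.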

How the data were processed

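RNA-Seq was analysed for 3 control and 3 Mttp-IKO liver pools. The authors deposited raw read counts per gene, the number of uniquely aligned, unambiguous reads assigned by featureCounts (1.4.6-p5) after alignment with STAR (2.5.1a) to Ensembl release 76 (GRCm38). The deposited CPM and RPKM values were derived by the authors from those counts and were not tested. Whether the strand was used is not given in the sources used here. Groups and replicates came from the sample labels.

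Genes were kept by filterByExpr (minimum count 10, minimum total 15), scaled by TMM (factors 0.899 to 1.11), and compared with edgeR 4.0.16 (glmQLFit and glmQLFTest, R 4.3.3, limma 3.58.1) with Benjamini-Hochberg adjustment and a threshold of 0.05. CPM values in the text are TMM-scaled, apart from the limit for 0 reads, and log2 fold changes are Mttp-IKO against control. P-values measure the spread between pools. The SE of a log2 fold change was worked out from it and the F statistic of the quasi-likelihood test, so it carries that spread too. Limits for 0 reads cover counting error only.

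The histone genes, the gene lists and the tests were chosen with earlier results of these data known. Named genes were, per class, the 3 with the smallest p and the 2 with the highest mean CPM, Hist1h1a and Hist1h3d (which the study picked from these libraries for quantitative PCR), the Hist2, Hist3 and Hist4 genes that passed the filter, and those over 1000 nt, and from each other list the 3 highest and the 3 with the smallest p, of which some are given. Other genes were named after their values were seen. In the list of histone mRNA processing, Zcchc6 and Zcchc11 were looked up as Tut7 and Tut4, the symbols in the files. Stem-loops and 50-base words came from GENCODE M21 transcripts, and promoters from RefSeq (GRCm38.p6).

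Alternatives were DESeq2 size factors, upper-quartile and total-count scaling, DESeq2 1.42.0, limma-voom, no filter, a table of protein-coding genes, a block for replicate number, each pool's loess trend with gene length taken out (span 0.3) and each pool left out in turn. Only the fit was tried on simulated counts with known changes. Those had the same dispersion for every gene, no pool standing apart and no trend with gene length, unlike these data. Figures were drawn with matplotlib 3.10.9.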

Additional observations from a re-analysis of the deposited data

How the results depend on the processing

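The negative median of the tested histone genes held under all settings run (-2.05 to -1.06), as did the ratio of their summed CPM under 1 (0.505 to 0.763). The number called did not. Of the histone genes, 2 were called in the reported fit, 6 with total-count scaling, 22 by DESeq2, 1 by limma-voom and 11 of 60 without a filter. The same settings called 1015, 1995, 428 and 990 of all genes, against 694. Leaving out a pool gave 0 to 8 histone genes and 0 to 892 of all genes. The lists of histone mRNA processing, chaperones, replication, mitosis and variants together had 10 called, 17 with total counts, 30 by DESeq2 and 0 to 15 without a pool. The causes were not tested.

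Pools with the same replicate number deviated together only weakly (correlations of 0.139, 0.112 and 0.007), and those with different numbers had -0.125 to 0.021. Whether the numbers pair the pools is not known. With the replicate number as a block, 9 histone genes and 595 of all genes were called.

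The H1 summed ratio turned to 1.06 without control pool 3 and was 0.762 to 1.06 without 1 pool. The H4 share difference (Mttp-IKO minus control) was -10.9 to 2.25 percentage points, positive without Mttp-IKO pool 3. With the length trend removed, Hist1h1c was at 0.11, Hist1h1e at 0.19 and Hist2h2ac at 0.070. Without 1 pool, Hist1h1c was at -0.27 to 0.19, Hist1h1e at -0.25 to 0.25, Hist2h2ac at -0.76 to 0.29, Hist4h4 at -1.19 to 0.031 and Hist2h2be at -0.046 to 0.63. These turned without Mttp-IKO pool 3, except Hist2h2be, which turned without Mttp-IKO pool 1, and the first pair turned without control pool 3 too. For the other named histone genes, direction held under every setting run.

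Reads with more than 1 place in the genome were not counted, and H2a and H3 had the smallest median shares of words found in no other gene.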
